A study of Arabidopsis thaliana with 2 samples.

Results

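LSM proteins are small relatives of the Sm proteins that assemble into rings of 7 subunits and bind RNA. The ring of LSM1 to LSM7 sits in the cytoplasm, where it binds the end of mRNAs that have lost their poly(A) tail, together with PAT1, and promotes removal of the cap. The ring of LSM2 to LSM8 sits in the nucleus, where it binds and stabilises the U6 small nuclear RNA of the spliceosome. LSM1 and LSM8 are each found in only 1 of the rings, and LSM2 to LSM7 are found in both. Arabidopsis encodes LSM1, LSM3 and LSM6 in a pair of copies each, named A and B.

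The genes described here are the LSM loci among 10 chosen by locus tag for these subunits. Of the 10, 6 had a probe set annotated to that gene alone, out of 13356 genes with such a probe set, and the other 4 were dropped. The 6 are LSM1A (AT1G19120), LSM1B (AT3G14080), LSM3A (AT1G21190), LSM3B (AT1G76860), LSM6A (AT3G59810) and LSM6B (AT2G43810), each with 1 probe set. They form 3 complete paralogue pairs. The 4 dropped loci are LSM2 (AT1G03330), LSM4 (AT5G27720), LSM7 (AT2G03870) and LSM8 (AT1G65700), and LSM5 (AT5G48870), which was not among the 10, had no probe set of its own named here either. No named probe set thus reads LSM8, the only subunit particular to the nuclear ring, so the rings as wholes cannot be set against each other. The annotation used has no entry for 8730 of 22746 non-control probe sets. Whether any of those reads LSM8, or another locus said here to have no probe set, was not examined. Both copies of the subunit particular to the cytoplasmic ring, LSM1, are measured.

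Total RNA of whole Arabidopsis thaliana seedlings was hybridised to Affymetrix ATH1 arrays, which read a transcript through a set of short probes. Wild-type Columbia-0 and OE-N6, a transgenic line in the same cultivar made to overexpress the locus AT4G16790 (NHRGP in the labels), had 1 array each. Seedlings of both genotypes were 2 weeks old, kept at 22 °C on diluted Murashige and Skoog medium (2% sucrose) in days of 16 h of light. The sources used here do not give the promoter of the transgene, the number of lines or the number of seedlings behind each RNA sample. With 1 array per genotype there is no spread between replicates, no p-value can be had, and every "higher" or "lower" below describes these arrays. The LSM genes were also chosen with these ratios known, so their ratios are a description.

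The signal of AT4G16790 was 91.1 on the wild-type array and 5171 on the OE-N6 array. The first value lies under the floor of 112 signal units, to which lower signals were raised, so the gene was at least 46.2-fold higher in OE-N6. Of 7 green tissue markers 4 had a probe set of their own, with signals that summed to 47694 for wild type and 48983 for OE-N6. Their log2 ratios were -0.18 for LHCB4.2, 0.03 for RCA, 0.04 for PRK and 0.16 for PSAN. Of 6 root markers 3 had a probe set of their own, with sums of 16313 and 16998. Those sums are almost all PYK10, an abundant root beta-glucosidase. PYK10 had a log2 ratio of 0.05. The other root markers, both expansins, were dim and higher in OE-N6. EXPA18 had signals of 188 and 290, a log2 ratio of 0.62 or 1.54-fold, and EXPA7, which did not pass the signal filter described below, had signals of 155 and 196, a log2 ratio of 0.34. Of the LSM genes given below, none had a ratio above that of EXPA18 and LSM3B and LSM6A had ratios above that of EXPA7. The part of these markers in the LSM values was not tested. Of 5 dividing cell markers only AUR1, a mitotic kinase, had one, with signals of 260 and 296, a log2 ratio of 0.19 that lies close to the LSM median given below; its part in the LSM values was not tested. None of 4 seed storage genes had one. In whole seedlings, fewer cells of a type and less RNA per cell cannot be told apart. The trimmed mean signal was 500 on both arrays.

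All 6 LSM genes lay above the signal filter of 192 units on both arrays, and none was near the floor. Of the 6, 5 had a higher signal in OE-N6 and 1, LSM1A, had nearly the same signal on both arrays. The median log2 ratio of OE-N6 over wild type was 0.20, with a range from -0.01 to 0.54. Over the 5862 genes that passed the filter, the median was -0.02 and 46.8% had a log2 ratio above 0. The differences were modest. None of the 6 reached 1.5-fold in either direction, a size that 2.44% of all genes reached upward and 2.41% downward. At a smaller threshold, a ratio of 5 to 4 or 0.322 on the log2 scale, LSM3B and LSM6A were higher, as were 10.4% of all genes, and no LSM gene was lower, against 12.1% of all genes. Because the ratios took part in the choice of these genes, nothing further is read from these shares.

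**Figure D1:**
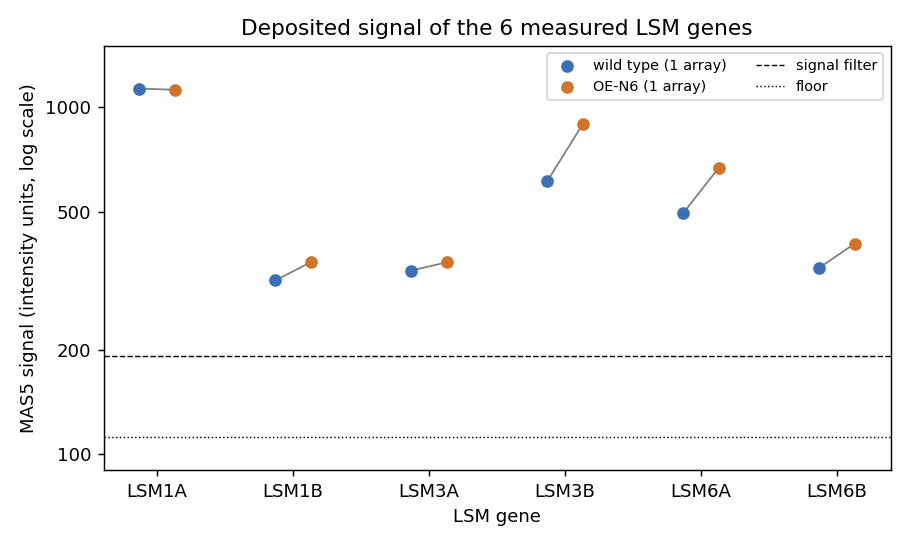
Deposited MAS5 signal (vertical axis, intensity units, log scale) of each LSM gene (horizontal axis) on the wild-type array (blue) and the OE-N6 array (orange), 1 point per array, with a grey line joining the points of a gene. LSM3B and LSM6A have the steepest lines, LSM1A is flat, and all points lie above the signal filter (192, dashed) and the floor (112, dotted); the heights of different genes are not comparable because each has its own probes.

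LSM1 is the subunit that sets the cytoplasmic decay ring apart from the nuclear one. LSM1A had a wild-type signal of 1131 and an OE-N6 signal of 1121, a log2 ratio of -0.01. Its sign depended on the scaling between arrays, being 0.01 after median centring and 0.00093 after loess scaling. LSM1B had signals of 317 and 358, a log2 ratio of 0.17 or 1.13-fold. The median of the LSM1 pair was 0.08. Of all genes that passed the filter, 51.2% had a lower ratio than LSM1A and 77.2% a lower ratio than LSM1B. Both ratios lay well within the range of genes of like brightness. For LSM1B those were 586 genes with mean signals from 291 to 352, whose log2 ratios had a 5th percentile of -0.47 and a 95th percentile of 0.40.

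LSM3 is a core subunit shared by both rings, and its copies stood furthest apart. LSM3B had a wild-type signal of 613 and an OE-N6 signal of 893, a log2 ratio of 0.54 or 1.46-fold. This was the highest ratio among the LSM genes, with 97.0% of all genes lower. Among 586 genes of like brightness, 98.1% were lower, and their 95th percentile was 0.42. LSM3A had signals of 338 and 357, a log2 ratio of 0.08 or 1.06-fold. Its ratio exceeded that of 65.7% of all genes. The OE-N6 signal was above the wild-type signal for both copies, by 280 units for LSM3B and by 18.9 units for LSM3A.

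LSM6, also shared by both rings, was higher in OE-N6 in both copies. LSM6A had signals of 496 and 669, a log2 ratio of 0.43 or 1.35-fold. LSM6B had signals of 345 and 405, a log2 ratio of 0.23 or 1.17-fold. The ratio of LSM6A lay above that of 94.4% of all genes and above that of 95.2% of 586 genes of like brightness. For LSM6B the corresponding shares were 83.1% and 83.4%. The 4 shared-subunit genes, LSM3A, LSM3B, LSM6A and LSM6B, were all above 0 with a median log2 ratio of 0.33, where 46.8% of all genes were above 0. They overlapped with the LSM1 pair, since LSM3A (0.08) lay below LSM1B (0.17), and a difference between them was not tested.

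**Figure D2:**
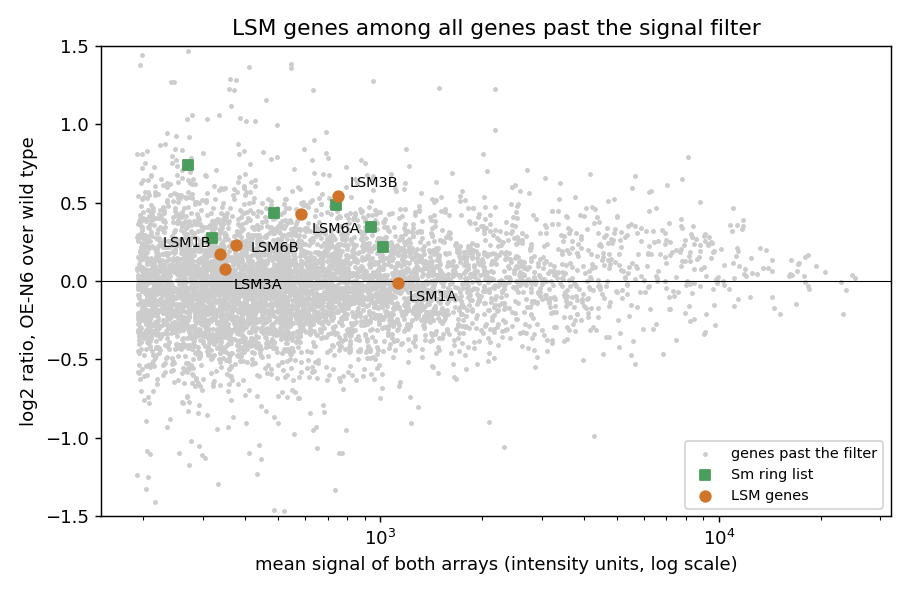
Log2 ratio of OE-N6 over wild type (vertical axis) against the mean signal of both arrays (horizontal axis, intensity units, log scale) for 5862 genes past the filter (grey), the 6 LSM genes (orange) and the 6 genes of the Sm ring list past the filter (green squares). LSM3B and LSM6A lie at the upper edge of the grey cloud at their brightness and the other LSM genes inside it; 12 genes with log2 ratios beyond 1.5 in size, the overexpressed gene among them, lie outside the plotted range.

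The paralogue pairs differed in how far apart their copies lay. The log2 ratio of the A copy minus that of the B copy was -0.46 for LSM3, -0.19 for LSM1 and 0.20 for LSM6. The B copy thus had the higher ratio for LSM1 and LSM3, and the A copy for LSM6. A measure of how far probe sets disagree on these arrays comes from 41 genes read by several probe sets past the filter. The brightest pair of probe sets of such a gene had log2 ratios that lay a median of 0.19 apart, and at most 0.73. Of these 41 genes, 21 differed by at least as much as the LSM1 copies, 19 by at least as much as the LSM6 copies and 7 by at least as much as the LSM3 copies. The gaps within the LSM1 and LSM6 pairs were thus of the size seen between probe sets of a single gene, and the LSM3 gap was matched or exceeded by fewer of them. The signals of copies are given side by side and not ranked, since probes of different sets bind with different strength.

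The other genes of the splicing and decay pathways were taken from 4 lists. The Sm ring is the relative of the LSM rings that forms the core of the U1, U2, U4 and U5 small nuclear ribonucleoproteins. The gene table used here gives no name to most loci of the lists. Their place in a list, and any name given as listed, rests on general knowledge. They are mostly given by locus.

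In the Sm ring list, 7 of 13 loci had a probe set of their own and 6 passed the filter. The 6 were listed as SmD1 (AT3G07590 and AT4G02840), SmE (AT4G30330 and AT2G18740), SmD3 (AT1G20580) and SmG (AT3G11500). Some are thus copies of the same subunit, and SmB, SmD2 and SmF are not among them. All 6 had a higher signal in OE-N6, with a median log2 ratio of 0.39 and a range from 0.22 to 0.74, and 4 of them passed the ratio of 5 to 4. Over all genes 46.8% were above 0 and 10.4% passed that ratio upward. AT3G07590 had a wild-type signal of 202 and an OE-N6 signal of 338, a log2 ratio of 0.74 or 1.67-fold, and was the only one past 1.5-fold. AT1G20580 had signals of 617 and 865, a log2 ratio of 0.49. AT4G30330 followed with signals of 412 and 558, a log2 ratio of 0.44. These values were of the size of those of LSM3B and LSM6A. AT4G02840 (0.35), AT2G18740 (0.28) and AT3G11500 (0.22) had smaller log2 ratios, and AT5G44500, with signals of 177 and 196, did not pass the filter. AT2G47640 and AT3G62840 share 2 probe sets, which disagreed: one had signals of 2431 and 2160, a log2 ratio of -0.17, and the other 563 and 639, a log2 ratio of 0.18.

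The U4/U6.U5 list holds proteins of the larger particle that carries U6 RNA into the spliceosome, the particle of which the nuclear LSM ring is part. Of 17 loci, 9 had a probe set of their own and 7 passed the filter, of which 4 were above 0 and 3 below, with a median log2 ratio of 0.27. The 4 higher genes lay close together, but AT4G12600, AT5G20160 and AT4G22380 were all listed as copies of the same protein, SNU13. The list median is the value of AT4G22380. AT4G12600 had signals of 1793 and 2248, a log2 ratio of 0.326, and AT5G20160 signals of 2186 and 2730, a log2 ratio of 0.321. AT1G28060, named RDM16 in the gene table, a splicing factor known also from RNA-directed DNA methylation, had 0.29, and AT4G22380 had 0.27. The lower genes were LIS (LACHESIS), related to the yeast splicing factor Prp4, with signals of 565 and 451, a log2 ratio of -0.327, AT2G40650 at -0.324 and AT2G38730 at -0.07. The list therefore held values on both sides of 0, where 46.8% of all genes were above 0. Without the filter its median was 0, because a gene under the floor on both arrays enters at 0.

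**Figure D3:**
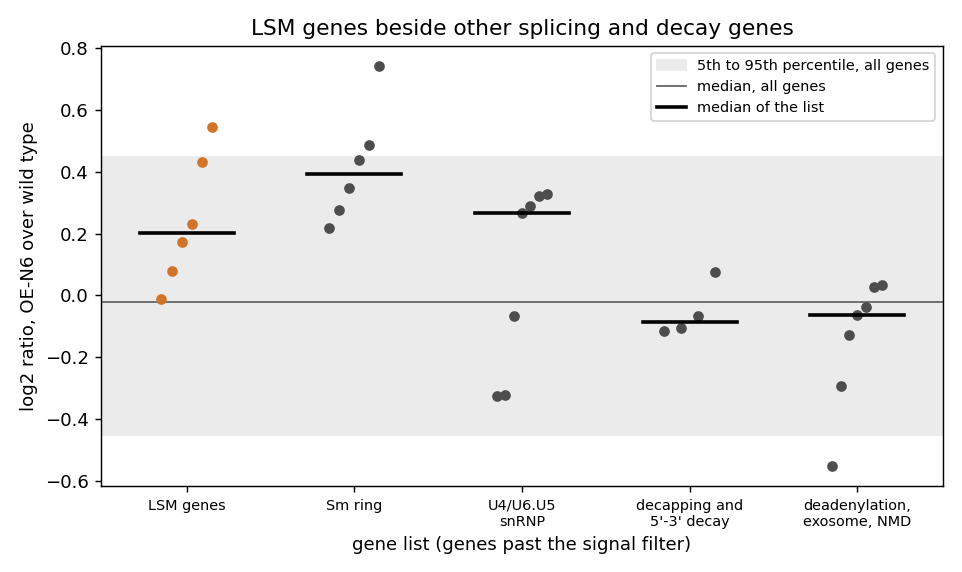
Log2 ratio of OE-N6 over wild type (vertical axis) for the genes past the signal filter in the LSM set (orange) and in 4 lists of other splicing and decay genes (dark grey), 1 point per gene, with the list median as a black bar. The grey band runs from the 5th (-0.45) to the 95th percentile (0.45) of 5862 genes and the thin line is their median (-0.02). The medians were 0.20 for the LSM genes, 0.39 for the Sm ring, 0.27 for U4/U6.U5, -0.09 for decapping and -0.06 for the last list.

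On the decay side, decapping factors and the enzyme that digests decapped mRNA from its 5' end act with the cytoplasmic LSM ring. Of 12 such loci, 4 had a probe set of their own and all 4 passed the filter. The 4 were listed as PAT1 (AT1G79090), PAT1H2 (AT4G14990), RH6 (AT2G45810) and RH12 (AT3G61240). DCP1, DCP2, DCP5 and XRN4, the 5' end enzyme, had no probe set of their own in the annotation used, so the list does not read them. Of the 4 measured genes, 1 was above 0 and 3 below, with a median log2 ratio of -0.09. The share above 0 over all genes was 46.8%. AT4G14990 had signals of 638 and 671, a log2 ratio of 0.07. AT3G61240 had -0.07, AT1G79090 had -0.11 and AT2G45810, with signals of 1407 and 1299, had -0.12. The probe set shared by VCS and VCR, scaffold proteins of the decapping complex, had signals of 2467 and 2406, a log2 ratio of -0.04. None of these values reached a ratio of 5 to 4 in either direction.

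Genes of deadenylation, the exosome and nonsense-mediated decay, other routes of mRNA breakdown, had a median log2 ratio of -0.06 over 7 measured of 16 loci. Of these, 2 were above 0 and 5 below, where 46.8% of all genes were above 0. AT2G39260 had the lowest ratio, with signals of 310 and 212, a log2 ratio of -0.55 or 1.47-fold lower. RRP41, a core subunit of the exosome, had signals of 410 and 335, a log2 ratio of -0.29, and AT3G46960 had -0.13. AT3G58560 (0.03), UPF3 (0.03), which acts in nonsense-mediated decay, and AT1G02080 (-0.04) had nearly equal signals on both arrays. Values past 5 to 4 upward, which 10.4% of all genes had, were found in the Sm ring (4 of 6 genes) and U4/U6.U5 (1 of 7), and in none of the 4 decapping or 7 other decay genes, while values past that size downward, which 12.1% of all genes had, numbered 2 in U4/U6.U5 and 1 among the other decay genes. The lists hold few genes and were chosen with earlier results of these data known. None of these counts, that of the Sm ring included, is read as a contrast between splicing and decay. A difference between lists was not tested, since genes within an array are not replicates.

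Some technical measures also differed between the arrays. For control transcripts read near the 3' end and also further upstream, the ratio of the former to the latter, a sign of RNA integrity and labelling, was higher in OE-N6 for 9 of 10 pairs, with a median log2 difference of 0.13 and a range from -0.20 to 0.39. The pairs come from actin, GAPDH and ubiquitin and are not independent. The spikes put into the RNA at labelling averaged a log2 ratio of 0.10 (SD across probe sets 0.18, n = 22 probe sets). Spikes added at hybridisation averaged nearly the same, 0.09 (SD across probe sets 0.17, n = 18 probe sets). LSM1A and LSM3A lay below both means and the other 4 LSM genes above them. The part of these measures in the LSM and Sm values was not tested.

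**Figure D4:**
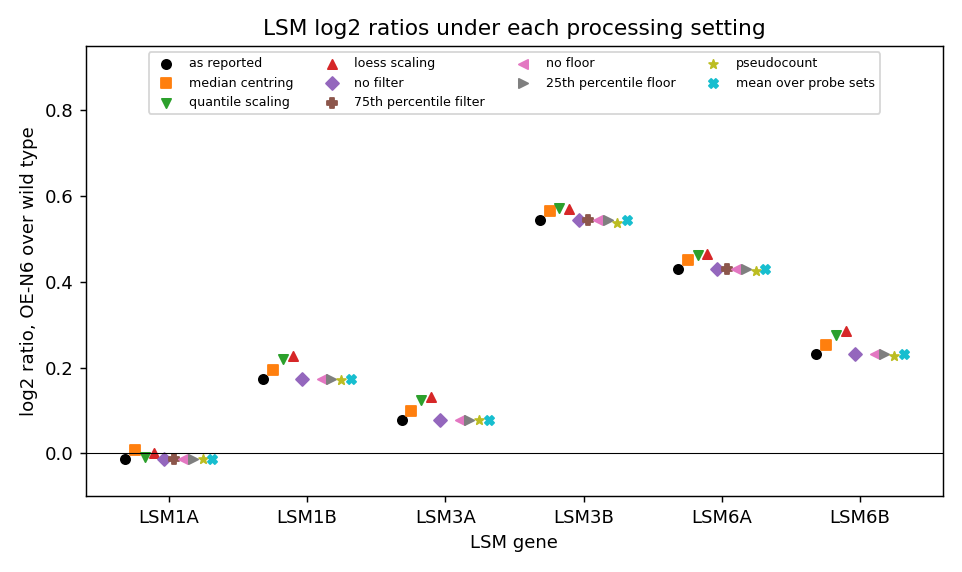
Log2 ratio of OE-N6 over wild type (vertical axis) of each LSM gene (horizontal axis) as reported (black circles) and under 9 other processing settings (coloured markers). Only the scalings and the pseudocount could move these ratios, since each gene had 1 probe set and lay above the floor. LSM3B stayed between 0.54 and 0.57, LSM6A between 0.42 and 0.47 and LSM6B between 0.23 and 0.28, while LSM1A lay between -0.01 and 0.01; genes under the 75th percentile filter have no marker for it.

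The order of the LSM ratios was the same under the 3 other scalings, with LSM3B highest, then LSM6A, LSM6B, LSM1B, LSM3A and LSM1A. LSM1B ranged from 0.17 to 0.23 and LSM3A from 0.08 to 0.13 over the settings shown in the plot of processing settings. Scaling moved all LSM genes upward together by small amounts and did not change which copy of a pair had the higher ratio.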

How the data were processed

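The authors deposited linear signal intensity for each of 22810 probe sets. Per the submitters' processing notes the tool was MAS5; the sources used here give neither its version nor its settings. The mean intensity after leaving out the highest and lowest 2% was equal on both arrays, so a change shared by most transcripts would not show. Of 22746 non-control probe sets, 13513 have 1 gene in the platform annotation, 503 name several, 8730 have no entry and stay unnamed, and 13436 of the first kind matched the gene table of assembly TAIR10.1. That table was used for names and neighbours, and no coordinates or sequences are printed.

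The brightest probe set stood for a gene. A gene passed the filter when its mean signal reached 192, the median over non-control probe sets. The floor for the log2 ratio was 112, the 40th percentile of all values, and lower signals were set to it. Counts were made at 1.5-fold and at a ratio of 5 to 4. "Like brightness" means the same one of 10 equal groups of genes, ordered by mean signal, that passed the filter.

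No test was possible with 1 array per genotype, and this number limits the precision. The genes and the lists were chosen with earlier results of these data known. The named genes were every LSM gene and, from each list, the 3 highest and 3 lowest ratios, or all where 6 or fewer passed. With their values already known, and beyond that rule, AT4G22380, AT5G44500, AUR1 and the green tissue and root markers were also named. So were the probe sets shared by several genes and the neighbouring loci. The calculation was tested on simulated data. The alternatives were median centring, quantile scaling and loess scaling with a span of 0.3, no filter and a 75th percentile filter, no floor and a 25th percentile floor, a pseudocount of 7.89, and averaging the probe sets of a gene. Counts over all genes were also made at 2-fold and over all probe sets. The addition of shared probe sets to the lists, and the medians of the LSM1 pair and of the shared subunits under each alternative, were chosen after seeing the data. Software was Python 3.11.15, statsmodels 0.14.6 for loess, pandas 2.3.3, numpy 2.4.6 and, for figures, matplotlib 3.10.9.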

Additional observations from a re-analysis of the deposited data

How the results depend on the processing

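Of the 9 alternatives, only the 3 scalings and the pseudocount could move the log2 ratio of an LSM gene. The filter, floor and averaging settings could not, since all 6 genes lay above the floor and had 1 probe set each. Under the scalings and the pseudocount no LSM gene changed its log2 ratio by more than 0.053. LSM1A was the only one whose sign turned, under median centring and loess scaling. The median of the 6 LSM genes ran from 0.198 to 0.255 except under the 75th percentile filter, where it was 0.43 over the remaining 3 genes, with 2 above 0. The paralogue gaps kept their direction wherever both copies passed the filter. The LSM1 median ran from 0.08 to 0.11 except under the 75th percentile filter, where LSM1A alone remained, at -0.01. The median of the shared LSM3 and LSM6 genes ran from 0.33 to 0.38 except under that filter. There it was 0.49, over LSM3B and LSM6A only. The Sm ring median ran from 0.31, with shared probe sets added, to 0.43. The U4/U6.U5 median was 0 without the filter. The median of deadenylation, exosome and nonsense-mediated decay genes turned to 0.03 under the 75th percentile filter, which leaves fewer genes. The overexpressed gene had a log2 ratio of 5.83 without the floor and with the 25th percentile floor, because its wild-type signal is no longer raised. Among all genes, 143 were at least 1.5-fold higher and 141 lower. These counts were 49 and 38 under the 75th percentile filter and 284 and 292 over all probe sets, and at other thresholds 609 and 707 (5 to 4) and 32 and 29 (2-fold). Under median centring, quantile and loess scaling the 1.5-fold counts were 159 and 121, 153 and 116, and 159 and 111. At 5 to 4 the balance turned from more lower genes to more higher ones, with 677 and 617, 656 and 614, and 683 and 582. No measure of signal over background was used. All 6 LSM genes lay above the floor on both arrays, but the floor is only a percentile of all values. LSM1B, LSM3A and LSM6B did not pass the 75th percentile filter. No paired analysis was possible because there is 1 array per genotype.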

Other observations

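Values were also taken for the loci next to the 6 LSM genes in the gene table. Of 12 adjacent protein-coding loci, 8 had a probe set of their own and 4 passed the signal filter, with 1 log2 ratio above 0 and 3 below and a median of -0.24, where 46.8% of all genes were above 0. The locus before LSM3B, AT1G76850, had a wild-type signal of 935 and an OE-N6 signal of 695, a log2 ratio of -0.43, while LSM3B itself had 0.54. Beside LSM1B, AT3G14075 had signals of 234 and 183, a log2 ratio of -0.35. AT1G19130, next to LSM1A, had signals of 898 and 825, a log2 ratio of -0.12, and AT2G43800, next to LSM6B, had nearly equal signals of 601 and 613. AT1G21200, next to LSM3A, did not pass the filter but lay above the floor on both arrays, with signals of 177 and 194, a log2 ratio of 0.13 beside 0.08 for LSM3A. AT3G59800, next to LSM6A, likewise did not pass, with signals of 188 and 155, a log2 ratio of -0.28. The loci were chosen only by their position, and no difference was tested.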
